A study of Mus musculus with 6 samples.

Results

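The 10 genes described here encode the core of the perineuronal net and of the hyaluronan matrix it hangs on: the lecticans Acan, Bcan, Ncan and Vcan, the link proteins Hapln1 and Hapln4, the tenascins Tnr and Tnc, and the hyaluronan synthases Has2 and Has3. They were chosen by name from these 4 families, out of 55401 genes in the deposited counts, with earlier results of these data known. The 5 other members of the families form a separate list below. Of 10 genes, 10 passed the filter on low counts and were among the 19969 genes tested. RNA-seq was performed on dorsal hippocampus of WT mice aged 4 months, the normal littermates of Ts65Dn mice, 3 days after an antisense oligonucleotide (ASO) had been infused into the dentate gyrus of both hemispheres at 50 μg per hemisphere. ASOs of this kind base-pair with a chosen RNA, and RNase H then cleaves the paired RNA. The 3 Snhg11-ASO mice received a strand against the long non-coding RNA Snhg11, and the 3 Control-ASO mice received a scrambled strand of the same length with no gene as its target. All 6 mice had surgery, a needle track and an oligonucleotide, and no uninjected mouse is among the 6. A single ASO sequence was used against Snhg11, and the sequenced tissue was the whole dorsal part of the hippocampus, which is wider than the injected dentate gyrus. The comparison asks how these matrix genes stood when Snhg11 had been knocked down.

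A perineuronal net is a lattice of extracellular matrix that wraps the cell body and proximal dendrites of some neurons, best known around parvalbumin interneurons and, in the hippocampus, around CA2 pyramidal neurons. Hyaluronan, a long sugar chain spun out at the cell surface by hyaluronan synthases, forms its backbone, lecticans bind the chain at one end with the help of link proteins, and tenascin-R ties the other ends of lecticans together. The same families also build a looser matrix made by astrocytes, oligodendrocyte precursors and other cells, and the tissue around an injury is known for a matrix rich in tenascin-C, versican and neurocan.

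The targeted RNA, Snhg11, stood at 551, 436 and 209 CPM (counts scaled to the size of each library with TMM factors) in Control-ASO replicates 1, 2 and 3, against 139, 65.4 and 69.4 CPM in Snhg11-ASO mice 1, 2 and 3. The groups did not overlap, with a log2 fold change of -2.13 (SE 0.43, edgeR quasi-likelihood test, unadjusted p = 0.00172, Benjamini-Hochberg adjusted p = 0.395). In DESeq2 the adjusted p was 6.2e-05. Libraries held 28951250 to 43997537 counts on genes. Ddx3y ranged from 62.5 to 94.7 CPM and Xist reached at most 0.184 CPM, the pattern of male tissue, in all 6 samples. The 9 markers of hippocampal excitatory neurons summed to 1953 to 2616 CPM, and 0 of them were at 0 in any sample. Snhg11-ASO replicate 1 stood apart from the rest: 16.9% of the genes tested differed over 2-fold from the median of the other 5 samples in it, against 3.45% to 6.72% in each of the other samples. The methods of the study removed 1 Snhg11-ASO sample as an outlier without naming it. All 6 samples were kept here, and the members' fold changes are therefore given with and without Snhg11-ASO replicate 1. Without it the log2 fold change of Snhg11 was -2.56.

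The stretches just before the start of transcription are shown for 4 members, because Acan, Tnc and Vcan shared a high value in that single library while Ncan had its highest values in the other Snhg11-ASO samples. Each run is the 250 bases before the start given by RefSeq on GRCm38.p6, written 5′ to 3′ on the strand of the gene, with matches to the motifs searched in capitals. The runs lie at chr7:79052976-79053225 (plus strand) for Acan, chr4:64047016-64047265 (minus) for the upstream of both listed Tnc starts, chr13:89742513-89742762 (minus) for Vcan and chr8:70120845-70121094 (minus) for Ncan.
Acan: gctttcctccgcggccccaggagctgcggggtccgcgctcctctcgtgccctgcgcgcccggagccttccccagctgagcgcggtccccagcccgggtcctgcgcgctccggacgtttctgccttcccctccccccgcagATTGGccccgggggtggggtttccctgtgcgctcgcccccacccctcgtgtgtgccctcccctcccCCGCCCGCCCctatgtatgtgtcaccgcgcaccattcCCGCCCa
Tnc: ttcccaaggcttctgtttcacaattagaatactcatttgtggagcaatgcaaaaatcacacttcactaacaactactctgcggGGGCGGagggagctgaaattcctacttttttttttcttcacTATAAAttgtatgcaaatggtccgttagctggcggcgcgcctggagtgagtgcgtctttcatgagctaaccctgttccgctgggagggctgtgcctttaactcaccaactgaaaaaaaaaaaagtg
Vcan: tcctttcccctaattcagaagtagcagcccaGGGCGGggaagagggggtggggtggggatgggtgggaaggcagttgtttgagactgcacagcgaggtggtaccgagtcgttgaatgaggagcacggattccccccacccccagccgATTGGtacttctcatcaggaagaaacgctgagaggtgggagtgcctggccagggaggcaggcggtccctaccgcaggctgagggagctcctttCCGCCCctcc
Ncan: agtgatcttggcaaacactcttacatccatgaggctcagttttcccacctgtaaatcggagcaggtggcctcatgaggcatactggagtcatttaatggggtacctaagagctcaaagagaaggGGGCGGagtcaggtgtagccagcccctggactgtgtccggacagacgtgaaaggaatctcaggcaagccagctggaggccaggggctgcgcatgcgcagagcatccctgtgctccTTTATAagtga
The motifs searched on both strands were the AP-1 site (TGANTCA), the cyclic AMP response element (TGACGTCA), the GC box (GGGCGG), the CCAAT box (CCAAT) and the TATA box (TATAAA). The Acan stretch held 3 GC boxes, 2 of them overlapping, and 1 CCAAT box, all read on the other strand. Vcan held 2 GC boxes, 1 on each strand, and 1 CCAAT box read on the other strand. Tnc and Ncan each held 1 GC box and 1 TATA box, and the TATA box of Ncan was read on the other strand. Counted from the start, the TATA matches began at -126 in Tnc and at -11 in Ncan. GC content was 74.4% in Acan, 62.4% in Vcan, 54.4% in Ncan and 44.8% in Tnc, against a median of 52.4% over 32851 promoters of this length. A GC box was present in 32.7% of those promoters, a CCAAT box in 33.8% and a TATA box in 12.4%. An AP-1 site was present in 6.7% and a cyclic AMP response element in 1.5% of them, and neither sequence of letters was found in the stretches of the 7 members with an entry (Acan, Bcan, Ncan, Vcan, Hapln1, Tnr and Tnc). A match is a string of letters and not evidence of a bound factor, and the lack of one in this window says nothing about the factor.

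In Control-ASO hippocampus the 10 genes spanned a wide range of levels, compared here per length as CPM per kilobase of exon. Bcan had the highest mean at 27.4 ± 4.69 (SD, n = 3) CPM per kb, followed by Ncan at 26.3 ± 3.22 and Tnr at 22.4 ± 1.41, and Bcan overlapped both, while the lowest Ncan value (24.1) lay just above the highest Tnr value (23.9). Hapln4 followed at 11.6 ± 4.29 CPM per kb, Hapln1 at 3.97 ± 0.605, Vcan at 2.70 ± 0.473 and Tnc at 2.09 ± 0.744. Acan, at 1.30 ± 0.455 CPM per kb, overlapped Tnc above it and Has3 (0.710 ± 0.253) below it, and Vcan and Tnc also overlapped. Has2 was lowest at 0.249 ± 0.0579 CPM per kb. Most of the RNA of these 10 genes was thus brevican, neurocan and tenascin-R, with aggrecan, the lectican that defines the classical net, far below them.

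No member passed the threshold in the comparison of Snhg11-ASO with Control-ASO. Of the 10 genes, 6 were higher and 4 lower in Snhg11-ASO, with a median log2 fold change of 0.39 against 0.01 over all genes tested. Without Snhg11-ASO replicate 1 that median was 0.05. At an adjusted p under 0.05, edgeR called 0 of 10 members and 0% of all genes. At an unadjusted p under 0.05 it counted 2 of 10 members, Ncan and Has2, both higher, beside 8.11% of all genes (3.68% higher and 4.43% lower). Without Snhg11-ASO replicate 1, 0 members were called (0.00989% of all genes) and the same 2 had an unadjusted p under 0.05, beside 9.94% of all genes (4.41% higher). With the replicate number as a block, 4 members (Ncan, Hapln4, Tnc and Has2, all higher) had an unadjusted p under 0.05, beside 8.59% of all genes (3.99% higher). No label pairs the numbers, and the block rests on a pairing taken from these same counts. DESeq2 called 1.44% of the genes it adjusted and 0 members when all 6 samples entered. Groups that did not overlap were found for 1 of 10 members, Has2, beside 15.4% of all genes (7.73% higher and 7.7% lower). The p-values measure the spread between 3 mice a group, and in bulk tissue fewer cells of a type and less RNA per cell cannot be told apart.

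**Figure D1:**
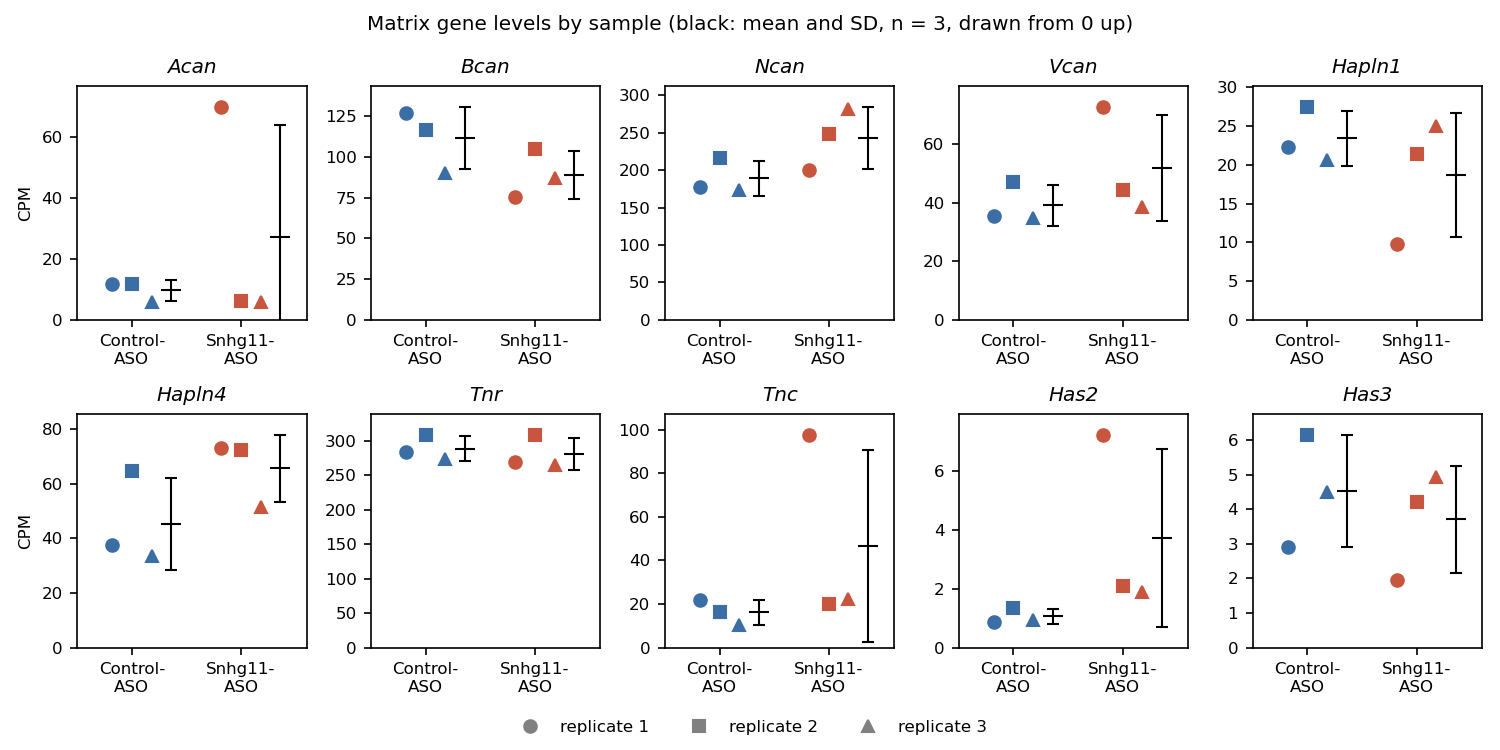
CPM of each of the 10 genes (vertical axes, each with its own scale from 0) in the 3 Control-ASO (blue) and 3 Snhg11-ASO (red) samples, with the replicate number as the shape and the group mean and SD in black, the bar of Acan stopping at 0. Acan, Vcan, Hapln4, Tnc and Has2 have their highest point in Snhg11-ASO replicate 1 (69.8, 72.5, 73.1, 97.6 and 7.24 CPM). Has2 is the gene whose groups do not overlap.

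Among the lecticans, the chondroitin sulfate proteoglycans that bind hyaluronan, Acan (aggrecan, ENSMUSG00000030607, chr7:79053483-79115099, plus strand) varied most. Its level was 11.7, 11.6 and 5.76 CPM in Control-ASO mice 1, 2 and 3, against 69.8, 6.32 and 5.82 CPM in Snhg11-ASO mice 1, 2 and 3. A single sample was high, and the other Snhg11-ASO samples lay with the lowest Control-ASO sample. Snhg11-ASO replicate 1 stood 11.0-fold above the median of the other 5 samples, a ratio that 0.456% of all genes tested reached in that library. Acan had a log2 fold change of 1.49 (SE 0.97, edgeR adjusted p = 0.727, exact permutation test p = 0.8), and without that replicate it was -0.67 (SE 0.31, edgeR unadjusted p = 0.0702, adjusted p = 0.528). The direction thus turned with 1 library. Counts in the 6 samples were 344, 390, 194, 2661, 264 and 254, so the difference was not a matter of a few reads. DESeq2 gave no p-value for Acan with all samples, as it does where 1 sample is marked as a count outlier.

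Bcan (brevican, ENSMUSG00000004892, chr3:87987531-88000230, minus strand), a small lectican of the adult brain made by astrocytes and neurons, leaned the other way. Control-ASO samples had 127, 117 and 90.2 CPM and Snhg11-ASO samples 75.4, 105 and 87.2 CPM. The lowest value came from Snhg11-ASO replicate 1, and the groups overlapped. The mean was 111 ± 19.1 (SD, n = 3) against 89.1 ± 14.7 CPM, and the log2 fold change was -0.32 (SE 0.17, edgeR unadjusted p = 0.0973, adjusted p = 0.675). Without Snhg11-ASO replicate 1 it was -0.21.

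Ncan (neurocan, ENSMUSG00000002341, chr8:70093085-70120873, minus strand), a lectican best known from the developing brain and from injured tissue, was the member whose difference was larger without the replicate that stood apart. Its levels were 178, 216 and 174 CPM in Control-ASO mice and 199.7, 248 and 282 CPM in Snhg11-ASO mice. Snhg11-ASO replicates 2 and 3 were the highest of the 6, while replicate 1 lay within the Control-ASO range. With all samples the mean was 189 ± 23.2 against 243 ± 41.1 CPM (SD, n = 3 each), with a log2 fold change of 0.36 (SE 0.15, edgeR unadjusted p = 0.0481, adjusted p = 0.609, exact permutation test p = 0.2). Without Snhg11-ASO replicate 1 the log2 fold change was 0.49 (SE 0.12, edgeR unadjusted p = 0.00593, adjusted p = 0.340, exact permutation test p = 0.1, the smallest that 2 mice against 3 allow). DESeq2 called Ncan higher in that set of 5 samples (adjusted p = 0.0229) and not with all 6 (adjusted p = 0.460).

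Vcan (versican, ENSMUSG00000021614, chr13:89655312-89742509, minus strand), the large lectican of immature and vascular matrix and of oligodendrocyte precursors, had 35.3, 46.9 and 34.8 CPM in Control-ASO mice and 72.5, 44.2 and 38.6 CPM in Snhg11-ASO mice. Only Snhg11-ASO replicate 1 exceeded the Control-ASO range. The log2 fold change of 0.41 (SE 0.25, edgeR adjusted p = 0.713) became 0.09 (SE 0.15) without it.

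Taken per length, the lectican RNA differed between samples more in its make-up than in its sum. The 4 lecticans summed to 60.0, 63.5 and 49.5 CPM per kb in Control-ASO mice and to 60.7, 64.1 and 64.0 CPM per kb in Snhg11-ASO mice. Brevican held 52.2%, 45.3% and 44.9% of that sum in Control-ASO mice and 30.6%, 40.2% and 33.5% in Snhg11-ASO mice. These 2 ranges did not overlap (exact permutation test p = 0.1, the smallest possible with 3 mice a group). Among all genes tested, 15.4% had groups that did not overlap in CPM, and Bcan was not among them. Neurocan held 41.2%, 47.2% and 48.7% against 45.7%, 53.7% and 61.1%. Aggrecan made up 2.61%, 2.44% and 1.56% in Control-ASO mice, 15.4% in Snhg11-ASO replicate 1, and 1.32% and 1.22% in Snhg11-ASO replicates 2 and 3, below every Control-ASO sample. Versican held 4.06% to 5.10% in Control-ASO mice, 8.26% in Snhg11-ASO replicate 1 and 4.77% and 4.17% in the others. Shares of 1 sum are not independent of each other, and they are given as a description.

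**Figure D2:**
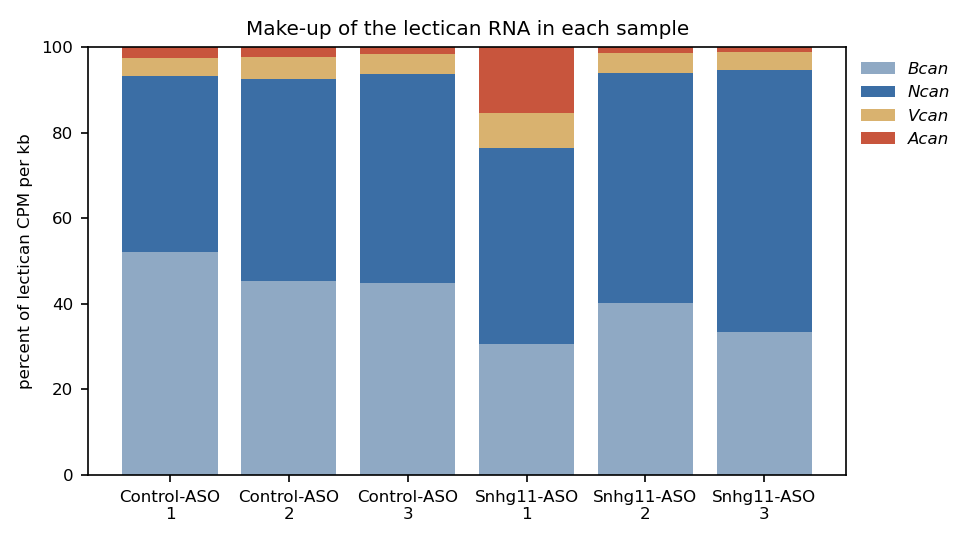
Stacked bars of the share (percent, vertical axis) of the summed lectican CPM per kb held by Bcan, Ncan, Vcan and Acan in each of the 6 samples (horizontal axis). The Bcan share is 44.9% to 52.2% in Control-ASO and 30.6% to 40.2% in Snhg11-ASO, and the Acan share is 15.4% in Snhg11-ASO replicate 1 and at most 2.61% elsewhere.

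Link proteins lock a lectican to the hyaluronan chain. Hapln1 (ENSMUSG00000021613, chr13:89539796-89611652, plus strand), the link protein of aggrecan-rich nets, had 22.3, 27.4 and 20.6 CPM in Control-ASO mice and 9.73, 21.4 and 25.0 CPM in Snhg11-ASO mice. Snhg11-ASO replicate 1 was the lowest sample, and the remaining 5 samples lay together. The log2 fold change was -0.32 (SE 0.33, edgeR adjusted p = 0.823) and -0.01 (SE 0.15) without that replicate. That single library held the highest Acan value and the lowest Hapln1 value, and also the highest value of Hapln4 (73.1 CPM). A link between these values was not tested.

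Hapln4 (ENSMUSG00000007594, chr8:70083457-70090862, plus strand), a brain link protein known for its partnership with brevican, was at 37.7, 64.7 and 33.7 CPM in Control-ASO mice and at 73.1, 72.5 and 51.6 CPM in Snhg11-ASO mice. Control-ASO replicate 2 lay above Snhg11-ASO replicate 3, so the groups overlapped. Each Snhg11-ASO replicate was above the Control-ASO replicate of its own number, but no label pairs the numbers. The log2 fold change of Hapln4 was 0.53 (SE 0.27, edgeR unadjusted p = 0.0859, adjusted p = 0.663), and 0.58 with the replicate block (unadjusted p = 0.0158, adjusted p = 0.497). It was 0.45 (SE 0.29) without Snhg11-ASO replicate 1.

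Each lectican gene neighbours a link protein gene in the mouse genome, with 0 coding genes between them. The gap was 2 bases between Acan and Hapln3, 2.2 kb between Ncan and Hapln4, 21.5 kb between Bcan and Hapln2 and 43.7 kb between Vcan and Hapln1. Ncan and Hapln4 were both higher in Snhg11-ASO, at log2 fold changes of 0.36 and 0.53. Bcan and Hapln2 differed in sign, at -0.32 and 0.52, as did Vcan and Hapln1, at 0.41 and -0.32, and Acan and Hapln3, at 1.49 and -0.10. Without Snhg11-ASO replicate 1, Vcan and Hapln1 were at 0.09 and -0.01, and Acan and Hapln3 at -0.67 and -0.02.

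The tenascins are large glycoproteins that cross-link lecticans. Tnr (tenascin-R, ENSMUSG00000015829, chr1:159523769-159931729, plus strand), the tenascin of the mature net and the longest of the 10 genes at 408.0 kb, was the steadiest member. Its levels were 283, 308 and 273 CPM in Control-ASO mice and 269.5, 308 and 265 CPM in Snhg11-ASO mice. The means of 288 ± 18.1 and 281 ± 23.4 CPM (SD, n = 3) gave a log2 fold change of -0.04 (SE 0.10, edgeR adjusted p = 0.938), and of -0.0075 without Snhg11-ASO replicate 1. A correction for genomic span moved it to 0.17, so its sign is not settled.

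Tnc (tenascin-C, ENSMUSG00000028364, chr4:63959785-64047015, minus strand), the tenascin of developing and injured tissue, was measured at 21.9, 16.4 and 10.3 CPM in Control-ASO mice and at 97.6, 20.1 and 22.2 CPM in Snhg11-ASO mice. Snhg11-ASO replicate 1 was 4.84-fold above the median of the others, a ratio reached by 1.65% of genes in that library, and Snhg11-ASO replicates 2 and 3 lay close to the highest Control-ASO value. The log2 fold change was 1.52 (SE 0.65, edgeR unadjusted p = 0.0507, adjusted p = 0.618), 1.19 with the replicate block (unadjusted p = 0.0185) and 0.39 (SE 0.28, unadjusted p = 0.211) without that replicate. DESeq2 called it only in the set without Snhg11-ASO replicate 2 (adjusted p = 0.0428), where the replicate that stood apart was 1 of 2 treated samples.

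Of the hyaluronan synthases, the membrane enzymes that make the backbone, Has2 (ENSMUSG00000022367, chr15:56665627-56694539, minus strand), the maker of very long chains, had the largest fold change of the 10 and the one separation of groups. It was counted 26, 45 and 32 times in Control-ASO mice and 276, 87 and 83 times in Snhg11-ASO mice, which is 0.884, 1.34 and 0.950 against 7.24, 2.08 and 1.90 CPM. All Snhg11-ASO samples lay above all Control-ASO samples, with replicate 1 highest (exact permutation test p = 0.1, the smallest possible with 3 mice a group). Its log2 fold change was 1.82 (SE 0.57, edgeR unadjusted p = 0.0156, adjusted p = 0.535). Without Snhg11-ASO replicate 1 it was 0.91 (SE 0.26, unadjusted p = 0.0110, adjusted p = 0.390), a smaller difference with a similar unadjusted p. In DESeq2 the adjusted p was 0.0916 with all samples, 0.0455 without Snhg11-ASO replicate 2 and 0.0360 without replicate 3, both of them sets in which replicate 1 was 1 of 2 treated samples. Without replicate 1 DESeq2 gave a log2 fold change of 0.91 and no adjusted p (unadjusted p = 0.0187). At a Control-ASO mean of 1.06 ± 0.245 CPM (SD, n = 3), it rested on the fewest counts of the 10.

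Has3 (ENSMUSG00000031910, chr8:106870242-106884566, plus strand), the synthase of shorter chains, had 2.92, 6.15 and 4.51 CPM in Control-ASO mice and 1.97, 4.21 and 4.95 CPM in Snhg11-ASO mice. Replicate 1 was lowest in both groups. Has3 had a log2 fold change of -0.29 (SE 0.41, edgeR adjusted p = 0.872) and 0.01 without Snhg11-ASO replicate 1. Its exons share 352 bases with those of Chtf8 on the opposite strand. On the strand opposite to Has3, 378 to 653 counts fell per sample, so the level of Has3 can be read only with strand taken into account. The 2 identifiers of Chtf8 were themselves at 0.157 to 0.653 CPM and at 0 CPM, and the source of the opposite-strand counts was not tested.

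**Figure D3:**
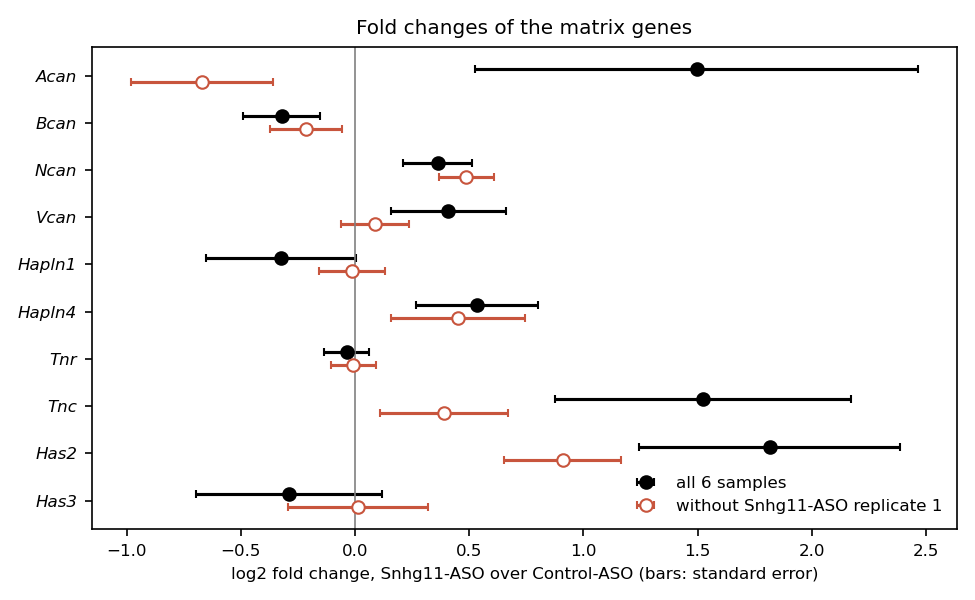
Log2 fold change of each of the 10 genes (horizontal axis, Snhg11-ASO over Control-ASO) with its standard error, from all 6 samples (filled black) and without Snhg11-ASO replicate 1 (open red). Acan moves from 1.49 to -0.67, Tnc from 1.52 to 0.39 and Has2 from 1.82 to 0.91, while Ncan moves from 0.36 to 0.49.

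Over 2-fold from the median of the other 5 samples, Snhg11-ASO replicate 1 held 5 of 10 members, with Acan, Tnc and Has2 above and Hapln1 and Has3 below. In that library 16.9% of all genes lay over 2-fold away and 8.45% over 2-fold above. Control-ASO replicate 3 held 3, Acan, Tnc and Has2, all below (5.03% of all genes), and Control-ASO replicate 1 held Has2 (6.72%). Control-ASO replicate 2 and Snhg11-ASO replicates 2 and 3 held 0 members (4.13%, 3.99% and 3.45% of all genes). Across the 6 samples, which share their libraries, log2 CPM of Acan and Tnc had a Pearson r of 0.90, which was 0.27 over 5 samples without Snhg11-ASO replicate 1. For Vcan and Has2 the values were 0.93 and 0.63, and for Ncan and Has2 0.27 and 0.95. Of all other genes tested, Gm40909, Fbrs and H6pd had the highest correlation with Acan, each with an r of 0.996 over 6 samples. An r over 0.9 was shared by 1519 of 19968 genes, so a pattern set by 1 high sample was common.

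Several marker lists of other cell types moved with that sample. The summed level of 6 markers of infiltrating myeloid cells was 133 CPM in Snhg11-ASO replicate 1 against 19.7 to 33.6 CPM in Control-ASO mice and 34.3 and 26.5 CPM in Snhg11-ASO replicates 2 and 3, with 4 of 6 genes highest in replicate 1. Arg1, an enzyme of alternatively activated macrophages, reached 72.1 CPM there and at most 3.91 CPM elsewhere, while Lyz2, a general myeloid lysozyme, was within the range of the other samples at 19.7 CPM. The 5 endothelial markers summed to 144 CPM in that sample and to 79.3 to 104 CPM in the others, with 4 of 5 highest in it. By contrast, 6 of 6 microglial markers were lowest there, summing to 135 CPM against 251 to 462 CPM elsewhere. The 7 markers of oligodendrocyte precursors summed to 93.3 CPM against 162 to 195 CPM. Of the astrocyte markers 6 of 9 were lowest there, summing to 4409 CPM against 4841 to 7405 CPM elsewhere. Of the oligodendrocyte markers 4 of 6 were lowest there, but their sum of 1628 CPM lay within the range of the other samples. The highest Acan, Vcan, Hapln4, Tnc and Has2 values and the lowest Bcan, Hapln1 and Has3 values thus came with these shifts. The part of these shifts in the members' values was not tested.

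Markers of parvalbumin interneurons, the best-known bearers of nets, with general interneuron genes among them, were lower in Snhg11-ASO in 8 of 8 genes. They summed to 633 to 663 CPM in Control-ASO mice and to 512 to 529 CPM in Snhg11-ASO mice, 2 ranges that did not overlap. Taken singly, 7.7% of all genes had groups that did not overlap in this direction. Their median log2 fold change was -0.29 (-0.35 without Snhg11-ASO replicate 1), edgeR called 0 and 2 of 8 were lower at an unadjusted p under 0.05, beside 9653 of 19969 genes lower and 4.43% of all genes lower at that p. Erbb4, a neuregulin receptor of these cells named here after its values were seen, was at 139.7, 110.2 and 126 CPM against 60.8, 78.9 and 73.8 CPM and made up much of the difference in the sum. Its log2 fold change was -0.82 (SE 0.13, edgeR adjusted p = 0.308), and DESeq2 called it (adjusted p = 0.000236). Parvalbumin itself (Pvalb) was at 16.1, 20.5 and 19.9 CPM against 14.0, 13.9 and 17.5 CPM (log2 fold change -0.31, and -0.26 without Snhg11-ASO replicate 1, edgeR adjusted p = 0.660). Gad1, which the paper used as a marker of interneurons in general, had the most RNA of the 8 genes. It was at 219, 187 and 192 CPM against 179, 162 and 177 CPM, so the sum is not specific to parvalbumin cells. Gad2, with the next most RNA, overlapped between the groups. It was at 123, 122 and 103 CPM against 107, 102 and 113 CPM (log2 fold change -0.12, edgeR adjusted p = 0.780). In all of these marker lists, 0 genes were at a count of 0 in any sample. The part of these differences in the levels of the net genes was not tested.

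**Figure D4:**
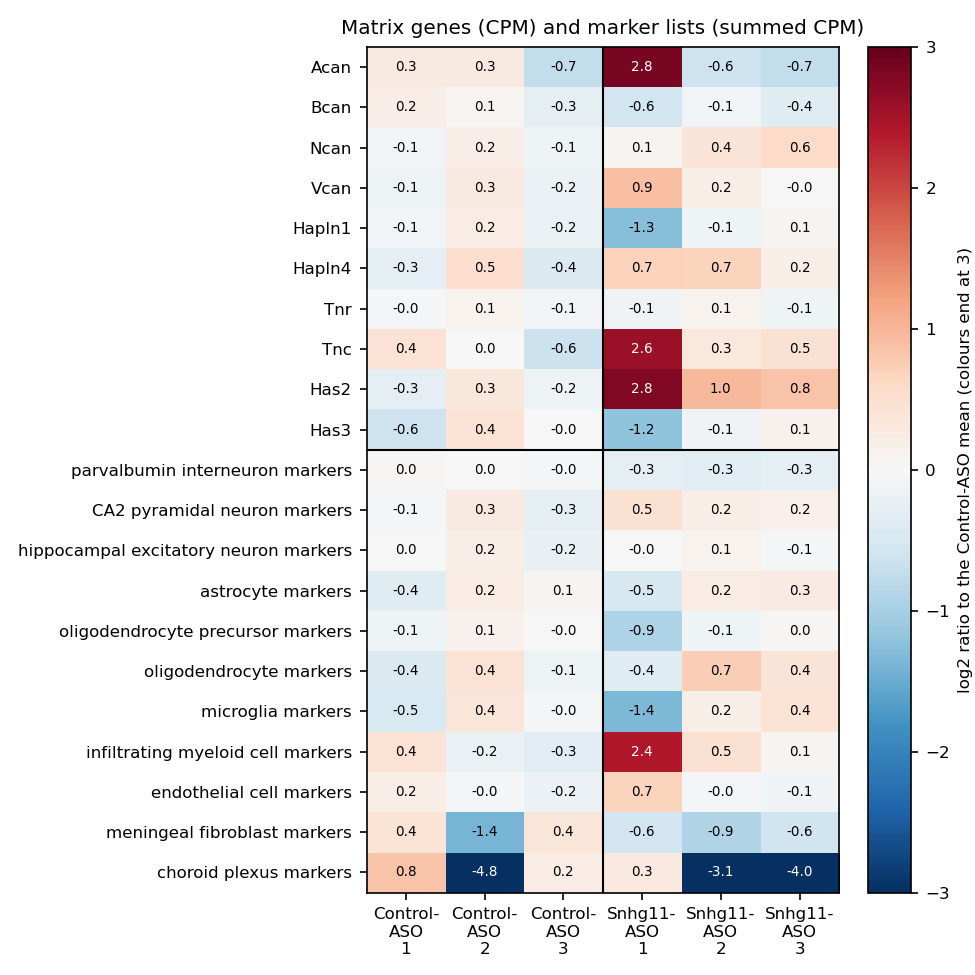
Log2 ratio to the Control-ASO mean (colour and printed values, with colours ending at 3) for the CPM of the 10 genes and, below the line, for the summed CPM of each marker list, in each of the 6 samples. Snhg11-ASO replicate 1 is high for Acan, Tnc, Has2 and the infiltrating myeloid list, and low for Hapln1, Has3 and the microglial list.

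Around the 10 genes, 5 lists of related matrix genes gave 0 calls in edgeR, and DESeq2 with all samples called 1 gene of them, Lgals3. Over all genes, DESeq2 with all samples called 1.44% of those it adjusted. With 1 Snhg11-ASO sample left out, DESeq2 also called Cd44, Mmp3 and Gpc5 among the genes named below, in 1 or 2 of 3 such sets each. The other members of the 4 families (5 of 5 tested) gave a median of 0.35 on the log2 scale, 3 being higher, 2 lower and 0 at an unadjusted p under 0.05. That median was -0.02 without Snhg11-ASO replicate 1. Hapln2, the link protein of nodes of Ranvier, was at 5.75, 13.0 and 11.5 CPM against 16.2, 13.3 and 13.9 CPM (log2 fold change 0.52, and 0.43 without Snhg11-ASO replicate 1, edgeR adjusted p = 0.690). Tnn (tenascin-W) was under 1 CPM in all samples but Snhg11-ASO replicate 1, where it reached 8.24 CPM, and its log2 fold change went from 2.10 to -1.38 without that sample. Tnxb, a tenascin of connective tissue, was at 16.1 ± 2.85 against 20.6 ± 1.62 CPM (SD, n = 3) (log2 fold change 0.35, and 0.30 without Snhg11-ASO replicate 1, edgeR adjusted p = 0.626).

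Receptors of hyaluronan and the proteins that bind, degrade or cross-link it numbered 15, all tested, with 10 higher, 5 lower, a median log2 fold change of 0.18 (0.15 without Snhg11-ASO replicate 1) and 3 at an unadjusted p under 0.05, all higher. Over all genes, 3.68% were higher at that p. Cd44, the main hyaluronan receptor of reactive cells, was at 19.2, 17.8 and 16.5 CPM in Control-ASO mice and at 200.3, 34.0 and 43.4 CPM in Snhg11-ASO mice. All treated samples were above all controls, and the log2 fold change was 2.38 (SE 0.67, edgeR unadjusted p = 0.00944, adjusted p = 0.498) and 1.12 without Snhg11-ASO replicate 1. In DESeq2 the adjusted p was 0.111 with all samples, 4.9e-09 without Snhg11-ASO replicate 1, 4.6e-05 without replicate 2 and 0.0821 without replicate 3. Layn, another hyaluronan receptor, had a log2 fold change of 1.07 (SE 0.36, edgeR unadjusted p = 0.0216, adjusted p = 0.551), and Tnfaip6, which transfers protein chains onto hyaluronan, one of 0.79 (SE 0.27, edgeR unadjusted p = 0.0226, adjusted p = 0.551). These were 0.57 and 0.52 without Snhg11-ASO replicate 1. In both, the lowest treated value exceeded the highest control value, as in Has2. Such separation, always higher, was found for 4 of the 15 genes, beside 7.73% of all genes. Cemip, a hyaluronan-degrading protein, and Itih5, a heavy chain partner of hyaluronan, had log2 fold changes of -0.05 and -0.31 (edgeR adjusted p = 0.943 and 0.716).

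Enzymes that build and sulfate the chondroitin sulfate chains of lecticans showed the narrowest spread. Of 22 genes 21 were tested (Chst13 was not), with 14 higher, 7 lower, a median log2 fold change of 0.03 (0.07 without Snhg11-ASO replicate 1) and 0 at an unadjusted p under 0.05. Fam20b, a kinase of the linker sugar, had a log2 fold change of -0.02 (SE 0.18), Chpf2, a chain-polymerizing factor, 0.13 (SE 0.08), and Chst11, a 4-O-sulfotransferase, 0.27 (SE 0.17).

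Proteases that cleave the net and their inhibitors varied more, with 23 of 23 tested, 15 higher, 8 lower and a median log2 fold change of 0.33 (0.10 without Snhg11-ASO replicate 1). At an unadjusted p under 0.05 were 4 higher genes and 1 lower, beside 3.68% of all genes higher and 4.43% lower. Adamts1, a protease of aggrecan and versican, was at 19.5 to 33.6 CPM against 263, 34.6 and 29.2 CPM (log2 fold change 2.14, edgeR adjusted p = 0.595, and 0.37 without Snhg11-ASO replicate 1). Adamts4, which cleaves brevican and aggrecan, had a log2 fold change of 0.64 (SE 0.26, edgeR adjusted p = 0.607), and of 0.42 without that replicate. Mmp3 (stromelysin) was under 1 CPM in 5 samples and at 18.8 CPM in Snhg11-ASO replicate 1, and its log2 fold change went from 3.99 to 0.75 without that sample. Timp1, an inhibitor of metalloproteinases known to be induced in injured tissue, was at 4.28, 5.95 and 2.17 CPM against 55.5, 7.56 and 9.99 CPM, with a log2 fold change of 2.56 (SE 0.83, edgeR unadjusted p = 0.0174, adjusted p = 0.543) that was 1.09 without that sample. Timp2 was lower in every Snhg11-ASO sample, at 153, 76.5 and 135 CPM against 68.7, 70.6 and 73.5 CPM (log2 fold change -0.78, SE 0.24, and -0.75 without Snhg11-ASO replicate 1, edgeR unadjusted p = 0.0137, adjusted p = 0.529). The genes of this list with most RNA apart from Timp2, Ctss (cathepsin S) and Mmp16, had log2 fold changes of 0.33 and -0.11 (edgeR adjusted p = 0.813 and 0.793).

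Proteins that bind the net or its chondroitin sulfate gave a median log2 fold change of -0.03 (-0.05 without Snhg11-ASO replicate 1) over 20 of 20 tested genes, with 8 higher and 12 lower, and 3 higher and 1 lower at an unadjusted p under 0.05. Over all genes, 3.68% were higher and 4.43% lower at that p. Lgals3 (galectin-3), a sugar-binding protein of activated phagocytes, was at 1.70, 4.93 and 3.59 CPM against 22.9, 10.3 and 10.7 CPM, with no overlap and a log2 fold change of 2.10 (SE 0.47, edgeR unadjusted p = 0.00295, adjusted p = 0.439) that was 1.62 without Snhg11-ASO replicate 1. DESeq2 called it with all samples (adjusted p = 0.00105). Nptx1, a pentraxin that gathers glutamate receptors, had 0.43 (SE 0.15, edgeR adjusted p = 0.551) and the glypican Gpc1 0.47 (SE 0.15, edgeR adjusted p = 0.543), which were 0.31 and 0.41 without that replicate. The glypican Gpc5 was lower, at 29.0, 27.3 and 25.0 CPM against 17.3, 22.2 and 18.8 CPM (log2 fold change -0.48, SE 0.13, and -0.40 without Snhg11-ASO replicate 1, edgeR unadjusted p = 0.00837, adjusted p = 0.497). With 1 sample left out in edgeR the value for Gpc5 ran from -0.58 to -0.40. Over all 18 alternatives of processing it came as close to 0 as -0.036, so its size depended on the processing. Ptprs, a receptor phosphatase for chondroitin sulfate, and Nptxr, the pentraxin receptor, had log2 fold changes of -0.13 and -0.02.

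**Figure D5:**
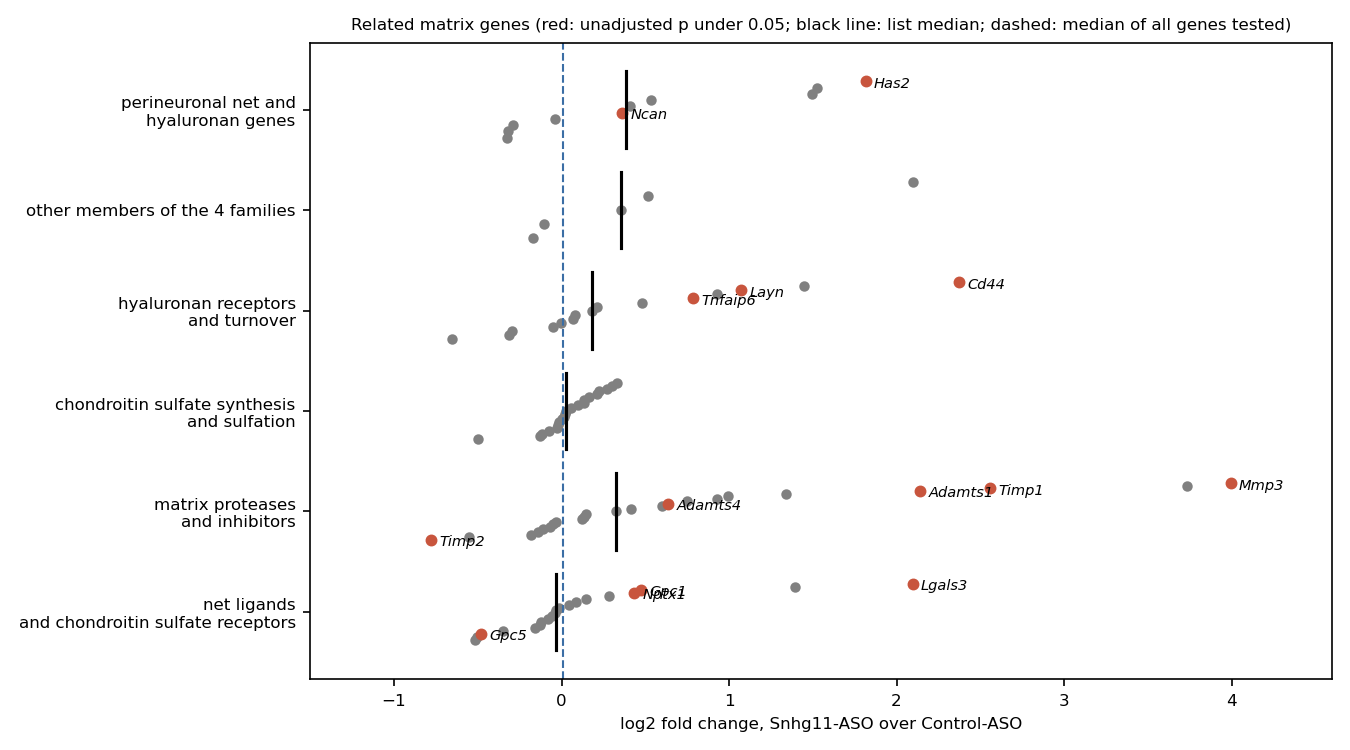
Log2 fold change (horizontal axis, Snhg11-ASO over Control-ASO) of every tested gene in the 10 net and hyaluronan genes and 5 related lists (vertical axis), with genes at an unadjusted p under 0.05 in red and named, list medians as black lines and the median of all genes tested dashed. The chondroitin sulfate enzymes cluster around their median of 0.03 with no red point, while Cd44, Timp1, Mmp3 and Lgals3 lie at 2.38, 2.56, 3.99 and 2.10.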

How the data were processed

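The deposited files held read counts per gene for each of 6 samples, which the authors made by aligning paired reads of 50 bases to mm10 (GRCm38) with STAR 2.5.2a and neither normalized nor pooled. The methods name Rsubread for counting, while the files have STAR's layout. Its 4 summary lines, 43.5% to 51.4% of read pairs, name no gene and were left out. Counts of the strand expected from the stranded kit were used, which held 96.2% to 96.8% of stranded gene counts. GENCODE M21 gave names and positions for 55141 of 55401 identifiers.

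Genes were filtered with filterByExpr (minimum count 10), scaled with TMM and tested with edgeR's quasi-likelihood test at a Benjamini-Hochberg adjusted p under 0.05 (R 4.3.3, edgeR 4.0.16, limma 3.58.1). A standard error here is the absolute log2 fold change over the square root of its F statistic. Levels per length divide CPM by merged exon length. Log2 CPM used a prior count of 2. Exact permutation tests were two-sided. On simulated counts of 19969 genes for this comparison, 200 of them changed by a log2 fold change of 2, edgeR recovered 85% and DESeq2 83.5%. Among the unchanged genes edgeR made 10 calls and DESeq2 30. The simulated samples held no library that stood apart, so these shares need not hold for the measured samples.

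The methods used DESeq2 without 1 unnamed sample, and DESeq2 1.42.0 was an alternative here, with all samples and without each Snhg11-ASO sample. Others were 2 further scalings, 2 other filters, counts of both strands, a replicate block, a correction for genomic span (loess span 0.3), alone and with the block, and leaving out each sample. Same-numbered samples deviated together from their group means (r of 0.297, 0.179 and 0.103, each over 0.1), and numbers were taken to pair samples, although Control-ASO replicate 2 correlated best with Snhg11-ASO replicate 3. The pairing comes from the values, since no label says what a number marks.

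The members and lists were chosen with earlier results of these data known. Named are all members, Snhg11, in each related list the 3 genes with the most RNA and those with an unadjusted p under 0.05, leading genes of marker lists, and the 3 genes most like Acan. Pvalb, Erbb4 and Hapln3 were named after their values were seen. Promoter sequences are from RefSeq (GRCm38.p6), which matched 7 of 10 members.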

Additional observations from a re-analysis of the deposited data

Results flagged for a closer look

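Counts on the strand opposite to each member were not used in the comparisons. On the strand opposite to Bcan, 3, 3 and 3 counts fell in Control-ASO mice against 23, 5 and 5 in Snhg11-ASO mice, a mean of 0.0934 against 0.279 CPM. It was named here because every Snhg11-ASO sample lay above every Control-ASO sample and the mean exceeded the 0.102 CPM that 3 counts are worth. The same held for 3.06% of all genes tested. These counts were at most 0.793% of the stranded counts of Bcan in any sample, and the higher one again came from Snhg11-ASO replicate 1.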

How the results depend on the processing

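Over 18 alternatives, edgeR called 0 to 2 genes in all (2 without Snhg11-ASO replicate 1), and DESeq2 called 258 with all samples and 347, 275 and 223 without Snhg11-ASO replicates 1, 2 and 3. Of the members, edgeR called 0 in each leave-one-out set, and DESeq2 without those replicates called 1 (Ncan), 2 (Tnc and Has2) and 1 (Has2). Members at an unadjusted p under 0.05 numbered 1 with upper-quartile factors, 4 with no filter, 1 with a mean of at least 10 counts, 4 with DESeq2 without Snhg11-ASO replicate 3 and 0 to 3 with 1 sample left out (0 without Control-ASO replicate 1). With the replicate block they numbered 4, and at an adjusted p under 0.05 edgeR again called 0 genes. In the related lists the block moved unadjusted p-values of edgeR across 0.05 in both directions. Examples are Ctss, from 0.338 to 0.0267, and Adamts4, from 0.0471 to 0.0696. The members' median log2 fold change was 0.050 to 0.51 with 1 sample left out and 0.047 in DESeq2 without Snhg11-ASO replicate 1. With 1 sample left out, values ran from -0.67 to 1.97 for Acan, -0.11 to 0.014 for Tnr, -0.55 to 0.014 for Has3, -1.38 to 2.66 for Tnn, -0.19 to 0.055 for Cemip, -0.19 to 0.16 for Fam20b and -0.14 to 0.14 for Nptxr. The correction for genomic span turned Tnr to 0.17 (0.17 with the replicate block too), Cemip to 0.0093 (0.0025) and Mmp16 to 0.035 (0.034). In DESeq2 without Snhg11-ASO replicate 1, Acan was -0.68, Has3 0.011, Tnn -1.40, Fam20b 0.16 and Nptxr 0.054, and without replicate 3 Tnr was 0.0048, Cemip 0.058 and Nptxr 0.030. Bcan, Ncan, Vcan, Hapln1, Hapln4, Tnc and Has2 kept their direction under all 18. Low counts limit Has2 and Has3, where the smallest library gave 26 and 86 counts. The cause of these changes was not tested, beyond the removal of a sample.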

Other observations

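CA2 pyramidal neurons, which also bear nets in the hippocampus, were read through 6 markers. They summed to 87.4 to 129 CPM in the Control-ASO samples and to 119 to 146 CPM in the Snhg11-ASO samples, with 4 genes higher, 2 lower and a median log2 fold change of 0.08, and 0 were called in edgeR or DESeq2 (1 had an unadjusted p under 0.05 in edgeR, higher). The 9 markers of hippocampal excitatory neurons had a median of -0.02.

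Among glia, the 6 markers of myelinating oligodendrocytes were all higher in Snhg11-ASO (median log2 fold change 0.28, and 0.59 without Snhg11-ASO replicate 1), with 0 called in edgeR or DESeq2, 0 at an unadjusted p under 0.05 in edgeR, and overlapping sums of 1549 to 2848 against 1628 to 3512 CPM. The 9 astrocyte markers had a median of 0.03, and 0.37 without that replicate. In that smaller set 3 of 6 oligodendrocyte and 3 of 9 astrocyte markers were higher at an unadjusted p under 0.05 in edgeR. Over all genes that share was 4.41%. Of meningeal fibroblast and choroid plexus markers, 6 of 6 and 7 of 7 were lower in Snhg11-ASO, with 0 called in edgeR or DESeq2 and 0 at an unadjusted p under 0.05 in edgeR. Their median log2 fold changes were -0.42 and -0.85, and -0.35 and -3.07 without Snhg11-ASO replicate 1. In that smaller set 0 meningeal and 2 choroid plexus markers were lower at an unadjusted p under 0.05 in edgeR, beside 1120 of 20226 genes. Choroid plexus sums ranged from 36.5 to 1895 CPM in the Control-ASO samples and from 67.6 to 1298 CPM in the Snhg11-ASO samples, a spread that did not follow the groups.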
